A study of Mus musculus with 3 samples.

Results

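Expanded and single CD4+ T cell clonotypes were compared in mice with graft-versus-host disease 7 days after bone marrow transplantation. A clonotype was the pair of amino acid junctions that a cell's T cell receptor alpha and beta chains carried. Within each pool of mice, a CD4+ cell outside the TEa population was called expanded when at least 1 other cell of its pool had the same clonotype, and single when none did. Of 21204 cells in the series, 10371 were CD4+ cells. Of these, 280 were TEa cells and 2107 others had no clonotype, which left 7984 cells, 1701 expanded (21.3%) and 6283 single. The members were chosen by how many cells carried their clonotype, 2 or more for expanded and 1 for single cells, so neither clonotype sizes nor the RNA of receptor genes was tested between the classes.

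All recipients were B6D2F1 mice given B6 bone marrow, polyclonal B6 T cells and TEa T cells, whose transgenic receptor recognizes a recipient alloantigen. Saline or cyclosporin A (CSA), 5 or 50 mg/kg, was given once a day over days 0 to 6, and spleens were harvested on day 7. Each treatment had 6 mice in 3 pools of 2, told apart by hashtag antibodies, and 1 capture, so treatment and capture cannot be told apart, whereas expanded and single cells of a pool shared their mice and their capture. A clonotype that was seen in several cells of a pool could have come from either of its 2 mice, and p-values over pools measure the spread between these pools.

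After transplantation, donor CD4+ T cells whose receptors bind recipient alloantigen divide, and the daughters of 1 cell share its receptor, so that cells with the same receptor in a sample mark a clone. Activated clones leave the naive state, in which T cells express lymph node homing receptors and the interleukin 7 receptor, and take up effector functions. CSA inhibits calcineurin, the phosphatase that carries the receptor's calcium signal to NFAT.

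Most expanded clonotypes were small. Among 642 expanded clonotypes, 441 (68.7%) had 2 cells, 120 had 3, 42 had 4 and 39 had 5 or more, of which 6 had 10 or more. The junctions of the 2 largest, both of 26 cells in the first saline pool, are shown as the best-sampled CD4+ clones of the series, with the codons between the first 4 and the last 4 in capitals to mark the middle of the junction.
clonotype 1 alpha: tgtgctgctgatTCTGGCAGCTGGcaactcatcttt
clonotype 1 beta: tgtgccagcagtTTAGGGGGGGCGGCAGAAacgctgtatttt
clonotype 2 alpha: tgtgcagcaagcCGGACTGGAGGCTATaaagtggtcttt
clonotype 2 beta: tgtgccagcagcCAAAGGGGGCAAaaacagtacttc

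Clonotype 1 joined TRAV4D-4 to TRAJ22 and TRBV15 to TRBJ2-3, and clonotype 2 joined TRAV10N to TRAJ12 and TRBV10 to TRBJ2-7. Each made up 11.5% of the expanded cells of its pool, and each had 1 further cell in another pool. The cells of clonotype 1 lay in 6 of the deposited expression clusters and those of clonotype 2 in 7, with 10 cells of each in cluster 0, so a shared receptor did not place a clone in 1 cluster. Ccl3, a chemokine that draws other inflammatory cells, had 887 and 1606 counts-per-million (CPM) of unique molecular identifiers (UMIs) in these 2 clonotypes, and Pdcd1, the inhibitory receptor PD-1, had 772 and 796 CPM. Neither clonotype had a UMI of the lymph node homing receptor Ccr7.

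The next 4 by size held 13 cells in saline replicate 2, 12 in CSA 5 mg/kg replicate 2, 10 in CSA 50 mg/kg replicate 2 and 10 in saline replicate 3. Their V segments were TRAV3D-3 with TRBV5, TRAV4D-4 with TRBV16, TRAV14-2 with TRBV16 and TRAV14-3 with TRBV5. The mouse alpha locus lies at chr14:52427928-54224206 and the beta locus at chr6:40891229-41558452 (mm10).

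A receptor could recur as protein without recurring as DNA. Of 6842 clonotypes, 76 were in more than 1 pool. The 59 shared by pools of 1 capture each had 1 nucleotide sequence, whereas 7 of the 17 seen in several captures had more than 1. Both chains were present in 58 of the 59 but in only 5 of the 17, so these groups were not alike. The other matches rest on 1 chain. There were 9 pairs of pools within captures and 27 between them, and 97 of the 216 cells in the 59 clonotypes counted as single in their pool. One protein, found in CSA 5 mg/kg replicate 1 and CSA 50 mg/kg replicate 3, is shown because its versions differed only at the last base of a codon (capitals), 1 in the alpha and 2 in the beta junction.
alpha, CSA 5 mg/kg replicate 1: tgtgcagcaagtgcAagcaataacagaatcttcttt
alpha, CSA 50 mg/kg replicate 3: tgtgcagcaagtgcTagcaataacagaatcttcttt
beta, CSA 5 mg/kg replicate 1: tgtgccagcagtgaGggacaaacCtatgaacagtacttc
beta, CSA 50 mg/kg replicate 3: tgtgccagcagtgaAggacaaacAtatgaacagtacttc

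Within a pool, 3 expanded clonotypes had more than 1 nucleotide sequence. The beta chain of the TEa receptor was also found in 23 cells that were not marked as TEa, in all 9 pools, of which 18 lacked an alpha chain and 16 counted as expanded. Counted together with any second beta chain of a cell, the nucleotide entries of these cells took 4 forms. The most frequent form, a single sequence, was in 20 of the 23 cells. That sequence is shown, with the middle codons in capitals, because these cells share the chain with the TEa cells. Without these 23 cells, 908 genes were higher and 816 lower in expanded cells in the comparison given below.
TEa beta chain: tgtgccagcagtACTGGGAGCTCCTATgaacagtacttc

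Several properties of the libraries moved with the classes. A chain was missing in 16.5% of single and 5.58% of expanded cells. More than 1 chain of a kind was found in 15.6% ± 2.48 (SD, n = 9 pools) of single and 7.47% ± 2.27 of expanded cells. Clonotypes were matched on all chains of a cell, so a missing or extra chain itself makes a match less likely. These chain shares therefore follow in part from the rule and are given without a test. A strong second hashtag was seen in 4.46% of single and 1.02% of expanded cells (exact sign-flip permutation test over pools, two-sided, adjusted p = 0.0312). This call was lost without any 1 of the saline pools, CSA 5 mg/kg replicates 2 and 3 or CSA 50 mg/kg replicates 2 and 3. The part of these properties in the differences was not tested, but the comparison was repeated without such cells. Without cells with a strong second hashtag 888 genes were higher and 786 lower, close to the counts given below. Cells with both chains gave 828 higher and 735 lower. Cells with 1 alpha and 1 beta chain, a setting chosen after seeing the data, gave 752 and 700. Summed libraries held 808827 to 5431469 UMIs. Across captures, 218 of 20986 cell barcodes recurred, 30 of them among the cells used, none with the same clonotype.

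Every cell used had a Cd4 UMI and none had a Cd8a UMI, whereas a Cd3d UMI was found in 97.4% of expanded and 96.0% of single cells. Whether the deposited CD4+ cells were picked by Cd4 and Cd8a counts was not tested, so these values are no measure of purity. A Cd8b1 UMI was found in 30.3% of expanded and 30.4% of single cells. Over the 7 CD4 T cell markers, summed levels ranged from 4448 to 5121 CPM in expanded and from 4550 to 4985 in single cells. B and plasma cell markers summed to 2.26 to 69.4 CPM in expanded and 4.66 to 8.64 in single cells, and myeloid markers to 307 to 432 and 317 to 452 CPM. Cluster 8, led by the macrophage complement genes C1qa, C1qb and C1qc, held 3.41% of expanded and 4.35% of single cells (exact sign-flip permutation test over pools, adjusted p = 0.0846).

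The share of expanded cells showed no ordered change with CSA dose. It was 25.8%, 19.7% and 19.9% in the saline pools, 19.6%, 18.2% and 16.6% with CSA 5 mg/kg, and 28.1%, 26.3% and 17.5% with CSA 50 mg/kg. Every saline pool lay above every CSA 5 mg/kg pool, while the CSA 50 mg/kg pools overlapped both, and an exact Jonckheere-Terpstra permutation test over saline, 5 and 50 mg/kg gave a two-sided p = 1. After every pool was thinned to 654 cells p was 0.668. The saline pools, at 14.8% to 22.9%, then overlapped the CSA 5 mg/kg pools, at 13.7% to 19.6%. The separation of these treatments was therefore not kept at equal cell numbers. In CD8+ cells of the same pools 28.4% ± 7.58 (SD, n = 9) were expanded, against 21.3% ± 4.25 of CD4+ cells. The difference was -7.07 percentage points, with the CD4+ share lower in 7 of 9 pools (exact sign-flip permutation test, p = 0.0312). By pool, the CD8+ shares were 38.1%, 38.3% and 37.8% in saline and 23.0%, 22.3% and 22.6% with CSA 5 mg/kg. With CSA 50 mg/kg they were 28.03%, 20.4% and 24.7%, and only in its replicates 1 (28.07%) and 2 was the CD4+ share higher. Whether the difference changed with treatment was not tested. With both populations thinned to the same number of cells the mean difference was -5.68 points (exact permutation p = 0.0703). Without thinning, leaving out saline replicate 1, 2 or 3 gave -6.42, -5.63 and -5.71 points, and leaving out replicate 3 of CSA 5 mg/kg or of CSA 50 mg/kg gave -7.21 and -7.05 points (exact permutation p = 0.0625 for each of these 5).

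Expanded cells were found more often in the dividing clusters. Clusters 3, 5 and 6, led by the replication gene Rrm2, the mitotic cyclin Ccnb2 and the proliferation marker Mki67, held 42.6% ± 6.40 of expanded and 24.1% ± 5.50 of single cells (SD, n = 9). The share was higher in expanded cells in 9 of 9 pools (exact sign-flip permutation test, p = 0.0039, the smallest that 9 pools can give). Taken singly, cluster 3 held 19.6% against 10.4%, cluster 5 held 13.7% against 8.55% and cluster 6 held 9.29% against 5.17% (exact tests, Benjamini-Hochberg adjusted p = 0.0085 for each). Single cells were in turn found more often in cluster 2, led by Sostdc1 and Id3, with 17.2% against 7.92%, and in cluster 9, led by Igfbp4, Ly6c1 and Ccr7, with 3.31% against 0 (exact tests, adjusted p = 0.0085).

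None of the 202 cells of cluster 9 was expanded, which allows a share of up to 1.49% of its cells by counting error alone. Cluster 11, led by the regulatory T cell factor Foxp3, held 0.069% of expanded and 1.32% of single cells (exact adjusted p = 0.0085), and cluster 12, led by Tmem176b, held 0.231% and 1.14% (exact adjusted p = 0.0435, with adjusted p of 0.058 to 0.087 without any 1 pool other than saline replicate 2 and CSA 50 mg/kg replicate 1). The shares of clusters 0, 1, 4, 7, 8 and 10 did not pass the test. Cluster 0, led by the chemokine Ccl5 and the interleukin 12 receptor chain Il12rb2, held 18.02% ± 6.02 of expanded and 15.9% ± 5.41 of single cells. As the clusters were made from expression, they are not independent of the genes described below.

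**Figure D1:**
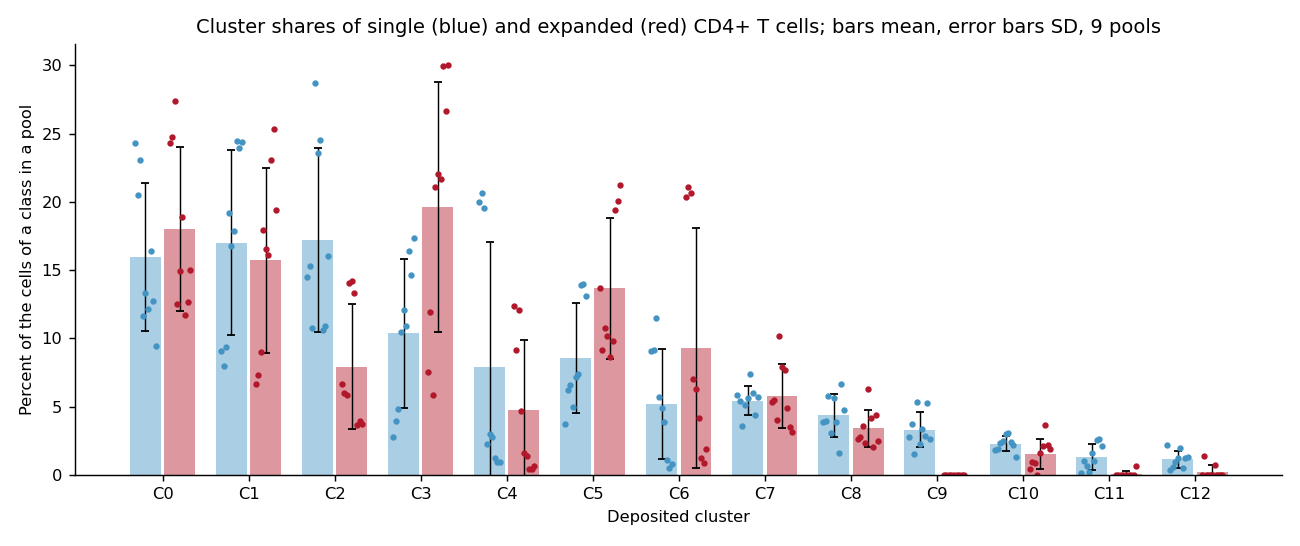
Percent of single (blue) and expanded (red) CD4+ T cells of a pool that fell in each deposited cluster. Bars are means, error bars SD and points the 9 pools. Clusters 3, 5 and 6 were higher in expanded cells, at 19.6% against 10.4%, 13.7% against 8.55% and 9.29% against 5.17%, and cluster 9 held no expanded cell.

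Members of a clonotype resembled each other in cluster. Pairs of cells with the same clonotype fell in the same cluster in 25.4% ± 4.70 (SD, n = 9) of cases, against 15.9% ± 2.73 for pairs of expanded cells of the same pool with different clonotypes. The difference was 9.47 percentage points, in the same direction in 9 of 9 pools (exact sign-flip permutation test, p = 0.0039). It was 9.46 points without the largest clonotype of each pool and 21.98 points among cells outside clusters 3, 5 and 6. Most pairs nevertheless lay in different clusters.

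Gene by gene, expanded cells had more RNA of cell division genes, of the chemokine genes Ccl3 and Ccl4, of Ifng and of the inhibitory receptors Pdcd1 and Havcr2, and less of naive and interferon-stimulated genes. Counts were summed per pool and class and tested with edgeR's quasi-likelihood test with the pool as a block, at a Benjamini-Hochberg adjusted p of 0.05 over 8952 genes. In all, 893 genes (9.98%) were higher in expanded cells and 790 (8.82%) were lower. Levels are CPM, differences are fitted log2 values of expanded minus single cells, and in summed libraries more cells that express a gene cannot be told apart from more RNA per cell. Single cells had fewer UMIs, with pool medians averaging 4602 against 5496, higher in expanded cells in 9 of 9 pools (exact permutation test, adjusted p = 0.0047). Leaving out cells under 2000 UMIs gave 838 genes higher and 807 lower, and counting 1 cell per expanded clonotype, which also lowers the counts of that class, gave 419 and 311.

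Ccl3 (chr11:83647844-83649355, mm10) had the largest rise among the genes named by size. Its lowest, median and highest level over 9 pools was 59.2, 254 and 594 CPM in expanded and 53.0, 79.2 and 114 CPM in single cells. The ranges overlapped, with expanded cells highest in saline replicate 1 (569 CPM) and CSA 50 mg/kg replicate 3 (594 CPM) and lower than single cells only in CSA 50 mg/kg replicate 1. The log2 difference was 1.46 ± 0.20 (SE, edgeR adjusted p = 4.15e-06, higher in 8 of 9 pools), and 1.03 when each expanded clonotype gave only 1 cell (edgeR adjusted p = 0.000219). The related chemokine Ccl4 differed by 1.09 ± 0.19 and was higher in 7 of 9 pools, reaching 1653 CPM in CSA 50 mg/kg replicate 3.

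Ifng, the signature cytokine of Th1 cells (chr10:118441046-118445892), had 40.6, 88.7 and 284 CPM in expanded and 45.5, 53.0 and 73.4 CPM in single cells. The highest value was that of saline replicate 1, and the ranges overlapped. The difference was 0.91 ± 0.13 (SE, edgeR adjusted p = 5.87e-06, higher in 8 of 9 pools). Il12rb2, which makes Th1 cells responsive to interleukin 12, was higher in 9 of 9 pools, by 0.76 ± 0.07, from 62.4 CPM in the median pool of single cells to 113 CPM in expanded cells.

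Pdcd1 (chr1:94038305-94052553) had 14.5, 327 and 437 CPM in expanded and 15.4, 188 and 224 CPM in single cells. The low values of both classes were those of the CSA 50 mg/kg pools, which reached at most 38.4 CPM, while the saline and CSA 5 mg/kg pools of expanded cells all lay above those of single cells. The difference was 0.71 ± 0.07 (SE, edgeR adjusted p = 2.18e-08, higher in 8 of 9 pools). Havcr2, the inhibitory receptor TIM-3 (chr11:46454935-46481255), was higher in 9 of 9 pools, by 0.74 ± 0.10, with 45.7, 70.1 and 132 CPM against 23.3, 49.2 and 56.6 CPM. Plek, a protein kinase C substrate, was higher in 9 of 9 pools by 0.82 ± 0.07, and the metal transporter gene Tmem163 by 0.66 ± 0.10. Tmem163 differed by 1.00 in saline and 1.01 with CSA 5 mg/kg. With CSA 50 mg/kg it differed by 0.18 and was not called (edgeR adjusted p = 0.33). The change from saline to CSA 50 mg/kg was -0.82 ± 0.15 (SE, edgeR interaction, adjusted p = 0.0051).

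Other large rises were those of genes of cell division. The mitotic kinase Cdk1 differed by 0.69 ± 0.06, the replication checkpoint gene Clspn by 0.69 ± 0.07, the mitotic cyclin Ccnb1 by 0.65 ± 0.06, the spindle gene Hmmr by 0.65 ± 0.09 and the histone gene Hist1h2ap by 0.71 ± 0.07, each in 9 of 9 pools. For Cdk1, expanded cells had 98.5, 132 and 187 CPM and single cells 66.9, 81.9 and 114 CPM.

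Ccr7 (chr11:99144196-99155077) separated the classes most clearly. Expanded cells had 16.1, 27.4 and 38.4 CPM and single cells 55.4, 71.5 and 102 CPM. No pool of expanded cells reached the lowest pool of single cells, and the difference was -1.38 ± 0.08 (SE, edgeR adjusted p = 2.54e-12). Il7r, the interleukin 7 receptor alpha chain that naive and memory cells need to survive (chr15:9505788-9530176), had 87.0, 121 and 154 CPM in expanded and 117, 279 and 342 CPM in single cells, which overlapped through the CSA 50 mg/kg pools. It differed by -1.05 ± 0.09 (SE, edgeR adjusted p = 1.95e-09), lower in 9 of 9 pools.

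Tcf7, which encodes the TCF-1 factor of naive and stem-like T cells (chr11:52252371-52283014), had 27.9, 107 and 151 CPM against 55.6, 187 and 258 CPM. Within every treatment the expanded pools lay below the single pools, and the difference was -0.91 ± 0.06 (SE, edgeR adjusted p = 1.84e-11). Izumo1r, the folate receptor 4 gene, differed by -1.04 ± 0.14, and Id3, an inhibitor of E proteins that rises in memory precursors, by -0.90 ± 0.09. The other genes among the 12 largest falls were Rgs10 (-0.72), Ltb (-0.68), Btg1 (-0.64), Cd7 (-0.63), Selenop (-0.61), Klk8 (-0.60) and Evl (-0.59), each lower in 9 of 9 pools. Ltb encodes lymphotoxin beta, and Btg1 is an antiproliferative gene of quiescent cells.

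**Figure D2:**
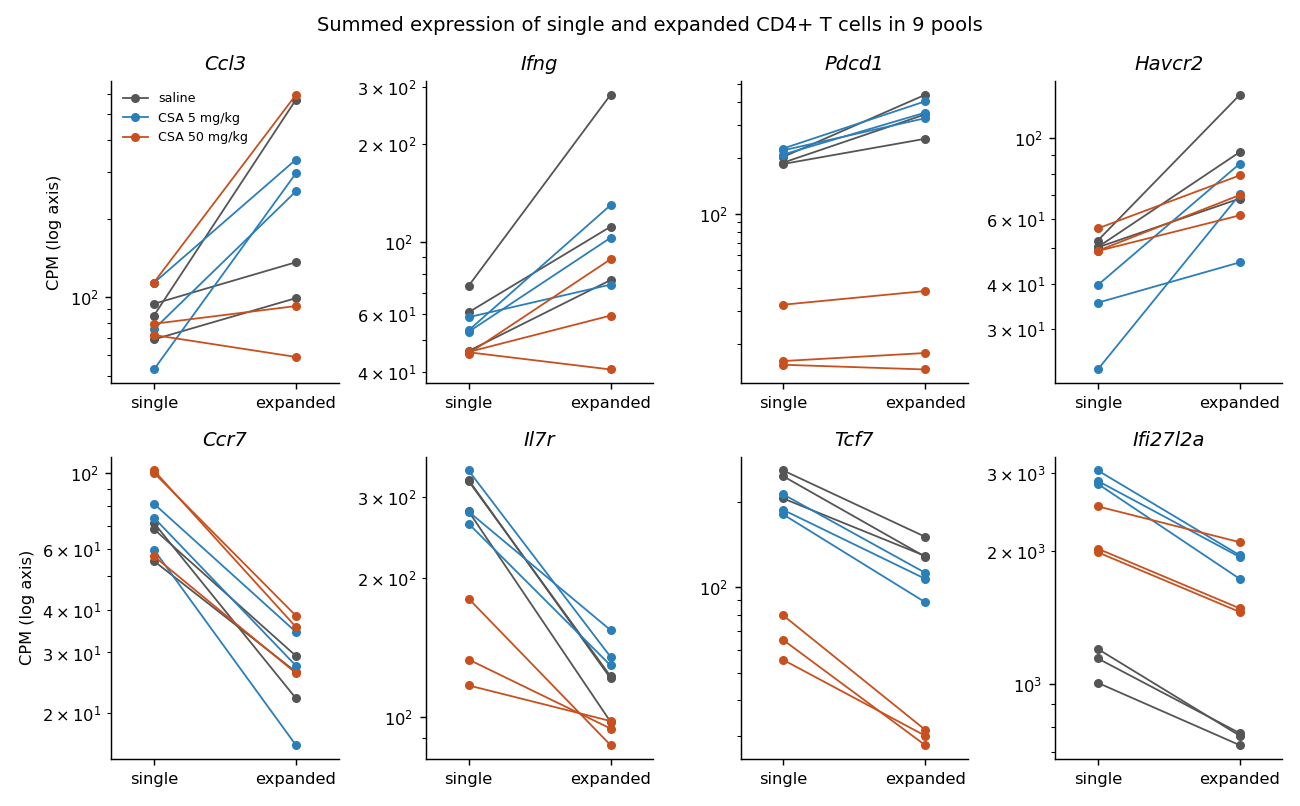
Summed expression (CPM, log axis) of 8 genes in single and expanded cells, with 1 line for each of the 9 pools coloured by treatment. Ccr7 fell in every pool with no overlap (16.1 to 38.4 against 55.4 to 102 CPM), whereas Ccl3 rose in 8 of 9 pools with a wide spread among expanded cells (59.2 to 594 CPM).

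The mean levels of several of these genes were also ordered by the size of the clonotype. Clonotypes of 1, 2 and 3 or more cells had means over 9 pools of 75.3 ± 17.2, 36.5 ± 13.1 and 19.0 ± 9.62 CPM (SD) for Ccr7. For Il7r the means were 252 ± 86.2, 130 ± 32.0 and 94.5 ± 17.5 CPM. Tcf7 had 168 ± 79.7, 115 ± 64.6 and 66.2 ± 42.9 CPM and Izumo1r 81.1 ± 50.7, 50.0 ± 41.9 and 25.2 ± 21.7 CPM. Among genes that were higher in expanded cells, Ccl3 had 85.1 ± 20.6, 215 ± 275 and 283 ± 252 CPM, Havcr2 had 45.8 ± 10.8, 60.0 ± 16.6 and 92.3 ± 34.4 CPM, and Pdcd1 had 145 ± 93.6, 227 ± 155 and 245 ± 181 CPM. Ccl4 was not ordered, with 233 ± 82.1, 553 ± 784 and 498 ± 371 CPM. The genes were chosen for their difference between the classes, so only the step from 2 to 3 or more cells adds to it. These levels are a description, without a test. For Ccl3, Pdcd1, Tcf7 and Izumo1r the means of the upper sizes lay closer together than 1 SD of clonotypes of 2 cells.

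**Figure D3:**
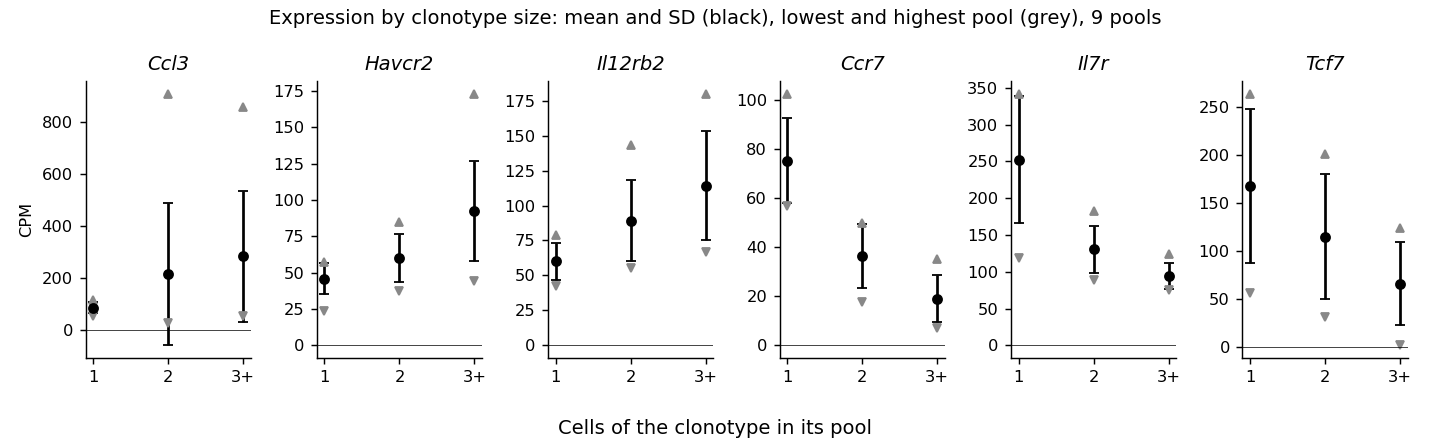
CPM of 6 genes in clonotypes of 1, 2 and 3 or more cells of a pool. Black points and bars are the mean and SD over 9 pools and grey triangles the lowest and highest pool. Ccr7 went from 75.3 to 36.5 and 19.0 CPM and Havcr2 from 45.8 to 60.0 and 92.3 CPM.

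Gene lists are given by their counts and their median difference, where the median over all 8952 genes was -0.01. Of 15 naive, stem and quiescence genes tested, 14 were lower and 0 higher in expanded cells, with a median of -0.90. The list holds Klf2, a factor that maintains quiescence and trafficking (-0.14 ± 0.04), and Txnip, which restrains glucose uptake (-0.45 ± 0.06). S1pr1, the sphingosine receptor for lymph node exit, was the member that did not pass (-0.10, edgeR adjusted p = 0.26).

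All 22 S phase genes tested (median 0.44) and all 24 G2/M genes (median 0.54) were higher, as were 7 of 9 replication-dependent histone genes (median 0.32). Mki67 differed by 0.54 ± 0.05, the topoisomerase Top2a by 0.54 ± 0.04, the chromatin protein gene Hmgb2 by 0.40 ± 0.03 and the PCNA partner Pclaf by 0.55 ± 0.05. Glycolysis genes were higher in 9 and lower in 1 of 19 (median 0.14), with Ldha, which makes lactate, at 0.14 ± 0.03. Of 37 oxidative phosphorylation genes 6 were higher and 2 lower (median 0.04), beside 9.98% higher and 8.82% lower over all genes.

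Effector lists were mixed. Among 13 cytotoxic molecules 6 were higher and 1 lower (median 0.15): Gzmb, the granzyme that starts target cell death, rose by 0.46 ± 0.05 and the granule gene Nkg7 by 0.43 ± 0.04, in 9 of 9 pools each, while Gzma fell (-0.33 ± 0.10, lower in 6 of 9 pools). The call of Gzma was lost without saline replicate 3 (-0.25) and without CSA 5 mg/kg replicate 1 or 3 (-0.26 each). Of 9 T cell cytokine genes, 4 were higher and 1 lower (median 0.36). Beside Ifng, the myeloid growth factor Csf2 rose by 0.62 ± 0.15 and the helper cytokine Il21 by 0.36 ± 0.11, the latter not called without saline replicate 1 (0.35), saline replicate 3 (0.30) or CSA 5 mg/kg replicate 3 (0.29). The CD30 ligand Tnfsf8 was lower (-0.46 ± 0.09).

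Inhibitory receptors and exhaustion genes were higher in 6 and lower in 1 of 12 (median 0.13), and by treatment higher in 3 and lower in 0 in saline (median 0.23), 4 and 0 with CSA 5 mg/kg (0.29) and 1 and 2 with CSA 50 mg/kg (-0.36). Besides Pdcd1 and Havcr2, the receptor Tigit rose by 0.16 ± 0.05, the exhaustion factor Tox by 0.32 ± 0.09 and the calmodulin-binding gene Nrgn by 0.63 ± 0.13, while Ctla4 fell (-0.28 ± 0.07). Tigit was not called without CSA 5 mg/kg replicate 3 (0.14) or CSA 50 mg/kg replicate 1 (0.12), nor Tox without saline replicate 1 (0.25). Th1 and effector factors were higher in 7 and lower in 0 of 18 (median 0.12), among them Cxcr6, a receptor for tissue homing (0.35 ± 0.05), and Id2, which favours effector fate (0.12 ± 0.04), although Id2 was not called without CSA 50 mg/kg replicate 1 (0.10) or 3 (0.09). Follicular helper genes were lower in 4 and higher in 0 of 8 (median -0.13), with the lineage factor Bcl6 at -0.79 ± 0.17 and the follicle homing receptor Cxcr5 at -0.71 ± 0.14.

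Homing and adhesion genes were higher in 12 and lower in 3 of 21 (median 0.19). The 4 named were Lgals1, a galectin (0.39 ± 0.03), the calcium-binding S100a6 (0.33 ± 0.04) and S100a10 (0.12 ± 0.03), and the LIM protein gene Crip1 (0.21 ± 0.03). Of 15 genes that receptor signals induce early, 3 were higher and 3 lower (median -0.00): the costimulatory receptor Tnfrsf9 (0.50 ± 0.08) and the AP-1 partner Batf (0.20 ± 0.05) rose, and Cd69 (-0.29 ± 0.05) and Egr1 (-0.34 ± 0.09) fell, Egr1 not passing without CSA 50 mg/kg replicate 1 (-0.24). Of 12 survival and apoptosis genes, 2 were higher and 4 lower (median -0.01), with the antiapoptotic Bcl2 at -0.58 ± 0.08.

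Interferon-stimulated genes were lower in 16 and higher in 0 of 20 (median -0.42). Ifi27l2a had 726, 1481 and 2091 CPM in expanded and 1005, 2021 and 3038 CPM in single cells, lower in 9 of 9 pools by 0.53 on the log2 scale (SE 0.03). The saline pools of both classes were the lowest and the ranges overlapped. Bst2, which tethers virions, fell by 0.33 (SE 0.06).

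Of 9 dissociation and stress genes, 6 were lower and 1 higher (median -0.33), including Fos (-0.62 ± 0.09) and Junb (-0.35 ± 0.04). The list's summed level was lower in expanded cells in 7 of 9 pools, with ranges of 1644 to 1949 and 1768 to 2091 CPM, and its part in the differences was not tested. Regulatory T cell markers were higher in 1 and lower in 2 of 5, myeloid markers higher in 2 and lower in 1 of 7, and NK and innate-like markers lower in 1 of 2. CD4 T cell markers were higher in 1 (Cd5, 0.20 ± 0.06, not called without saline replicate 1 or CSA 5 mg/kg replicate 2, at 0.17 and 0.15) and lower in 1 (Cd3d, -0.12 ± 0.03) of 7, and the CD8 T cell marker tested, Cd8b1, did not pass (-0.17 ± 0.07, edgeR adjusted p = 0.089). Among surface genes linked to the high CSA dose, 1 of 7 was lower, Ly6c1 (0 to 14.7 CPM in expanded and 9.83 to 50.7 CPM in single cells, -2.54 ± 0.24), a leading gene of cluster 9, in which no cell was expanded. Of the markers of Th17, B and erythroid cells, 0 had enough counts to be tested.

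Giving both classes the same cluster makeup left far fewer differences. From each pool and cluster, equal numbers of expanded and single cells were drawn, 1694 of each class in all, and 7545 genes were tested. Of these, 77 (1.02%) were higher and 45 (0.596%) lower in expanded cells. Among the 122 genes called, 113 were also called with all cells, all 113 in the same direction. Of 1563 genes called with all cells and tested here, 1413 had the same sign. The cells drawn were a part of those compared above, so shared calls and signs are not independent support. With fewer cells the test also had fewer counts. Without saline replicate 1 the calls were 49 and 21, and without saline replicate 3 or CSA 5 mg/kg replicate 2 or 3 they were 50 and 24, 50 and 25, and 51 and 26. Without saline replicate 2, 27 genes were lower.

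The 6 largest rises at equal makeup were also among the largest with all cells. Pdcd1 differed by 0.79 ± 0.08 (SE, edgeR adjusted p = 9.07e-07), Plek by 0.63 ± 0.08, Il12rb2 by 0.64 ± 0.09, Havcr2 by 0.57 ± 0.11, Ifng by 0.80 ± 0.16 and Ccl3 by 1.37 ± 0.31 (edgeR adjusted p = 0.0154). The call of Ccl3 was lost without saline replicate 1 (1.06, edgeR adjusted p = 0.073) and without CSA 50 mg/kg replicate 3 (1.17, edgeR adjusted p = 0.058), and with DESeq2 neither Ccl3 (adjusted p = 0.164) nor Ifng (adjusted p = 0.179) passed. Of the 12 genes named at equal makeup, 6 lost the call with 1 cell per expanded clonotype (Havcr2, Plac8, Klk8, Vrk1, Ifitm3 and Kcnq1ot1), 3 with DESeq2, which gave 4 others no adjusted p, and 2 or 3 in each other draw of cells. Inhibitory receptors and exhaustion genes were higher in 4 and lower in 0 of 11 (median 0.41), and homing and adhesion genes higher in 8 and lower in 0 of 18 (median 0.13).

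The 6 largest falls at equal makeup were those of Plac8 (-0.57 ± 0.10), Cd7 (-0.53 ± 0.08), Klk8 (-0.44 ± 0.09), Vrk1 (-0.39 ± 0.09), Ifitm3 (-0.37 ± 0.10) and Kcnq1ot1 (-0.37 ± 0.09). Plac8, Cd7 and Klk8 were called without any 1 pool, while the calls of the other 3 were each lost without saline replicate 1 (-0.36 for Vrk1, -0.34 for Ifitm3 and -0.36 for Kcnq1ot1), without saline replicate 2 (-0.37, -0.37 and -0.28) and without at least 3 further pools taken singly. Ccr7 differed by -0.70 ± 0.13 (edgeR adjusted p = 0.00244, lower in 8 of 9 pools) and Il7r by -0.80 ± 0.12 (edgeR adjusted p = 0.00022, lower in 7 of 9 pools). Naive, stem and quiescence genes were lower in 6 and higher in 0 of 14 (median -0.25), and interferon-stimulated genes lower in 2 and higher in 0 of 17 (median -0.19). Of 22 S phase and 24 G2/M genes, 0 were called by edgeR (medians -0.00 and 0.06), with 1 and 4 at an unadjusted p under 0.05. The median over all 7545 genes was 0.00.

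**Figure D4:**
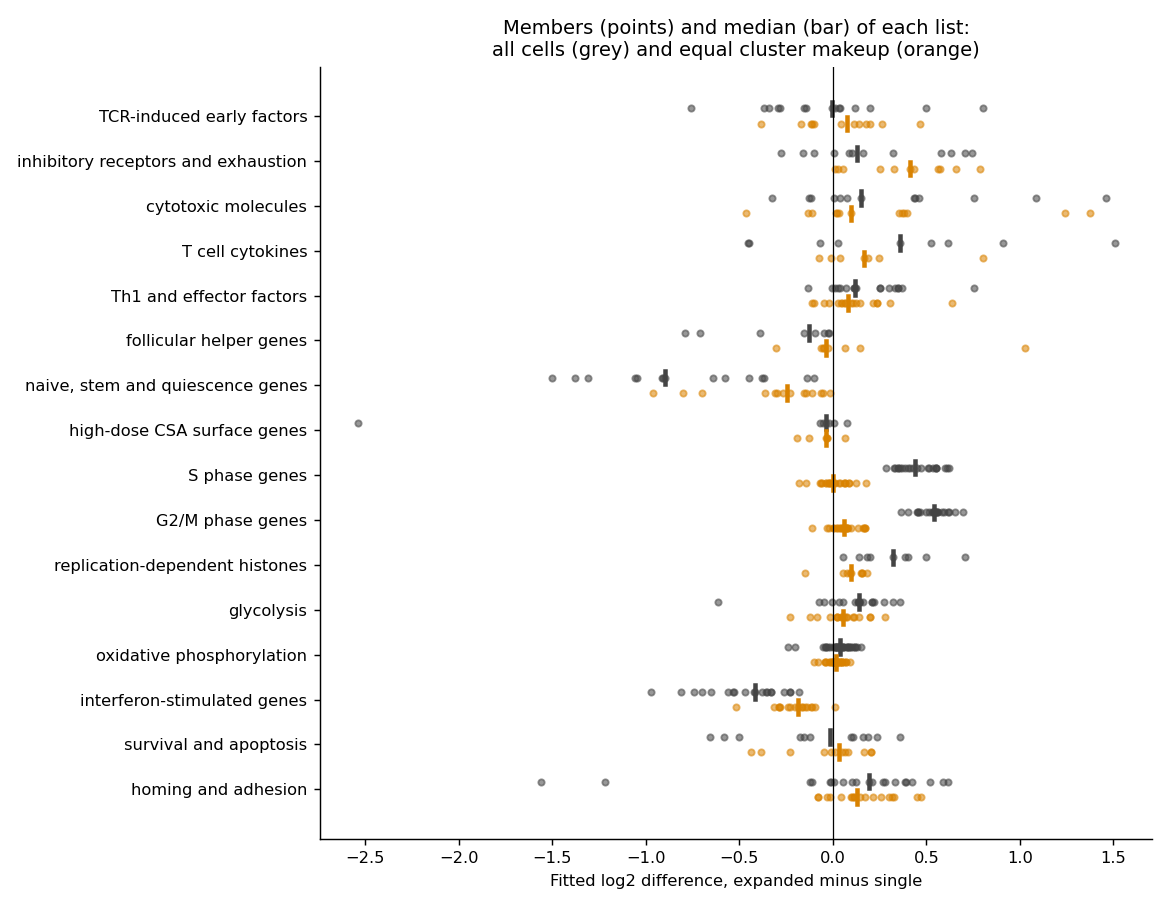
Fitted log2 difference (expanded minus single) of the tested members of each list. Points are genes and bars medians, in grey with all cells and in orange with equal cluster makeup. Medians moved from 0.54 to 0.06 for G2/M genes and from -0.90 to -0.25 for naive, stem and quiescence genes, and from 0.13 to 0.41 for inhibitory receptors.

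Within single clusters the same genes recurred. Cluster 1, led by Ifitm1, Ifitm2 and the chemokine receptor Ccr2, had the most calls, 78 of 3560 genes (2.19%), and cluster 0 had 32 of 3117 (1.03%). The others were cluster 3 with 21 of 4998 (0.42%), cluster 2 with 10 of 3165 (0.316%), cluster 5 with 8 of 3639 (0.22%) and cluster 7, led by Ccl1, with 0 of 2512 (0%), where edgeR gave 153 genes at an unadjusted p under 0.05 and DESeq2 also called 0. Pdcd1 was higher in 4 of the 6 clusters tested, by 0.85 in cluster 0, 0.82 in cluster 1, 0.87 in cluster 2 and 0.64 in cluster 3. In clusters 5 and 7 it differed by 0.52 in each, without passing.

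Nkg7, S100a6 and the galectin Lgals3 were also called higher in 4 clusters, and Ccl4, Plek and Lgals1 in 3. Il7r was lower in clusters 0 (-1.10), 1 (-0.66) and 3 (-0.96). Ltb, Plac8 and Ifi27l2a were each lower in 3 clusters. The genes of these sentences were chosen for how often they were called, and clusters of a pool share its mice.

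Within each treatment the classes differed in many genes. The calls were 787 of 8952 genes in saline (8.79%), 652 with CSA 5 mg/kg (7.28%) and 641 with CSA 50 mg/kg (7.16%). Ccr7 differed by -1.32 ± 0.14 in saline, -1.48 ± 0.17 with CSA 5 mg/kg and -1.36 ± 0.12 with CSA 50 mg/kg. Naive, stem and quiescence genes were lower in 12, 10 and 13 of 15, and G2/M genes higher in 23, 19 and 22 of 24. Interferon-stimulated genes were lower in 12, 13 and 4 of 20. At equal makeup the treatments gave 64, 74 and 1 calls.

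Few genes were called for a class difference that itself changed with CSA. An interaction was called for 9 genes with CSA 5 mg/kg (0.101%) and 30 with CSA 50 mg/kg (0.335%), both against the same saline pools. At an unadjusted p under 0.05 edgeR gave 477 and 740 of 8952 genes. With 3 pools a treatment, a gene that was not called may still have changed. The count for CSA 50 mg/kg was 9 without its replicate 1, 14 without its replicate 2 and 17 without saline replicate 1. Il7r had 121, 97.7 and 123 CPM in expanded and 326, 279 and 324 CPM in single cells of the saline pools, against 98.1, 94.5 and 87.0 and 117, 133 and 181 CPM with CSA 50 mg/kg. The classes did not overlap in either treatment, but single cells of CSA 50 mg/kg were close to expanded cells of saline. The difference went from -1.45 to -0.59, a change of 0.86 ± 0.15 (SE, edgeR interaction, adjusted p = 0.0050), and at equal makeup the change was 1.21 (edgeR adjusted p = 0.000277). With all cells it was 0.69 without CSA 50 mg/kg replicate 1 (edgeR adjusted p = 0.062).

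Tnfsf8 had 157, 139 and 106 CPM in expanded and 173, 173 and 117 CPM in single cells of saline pools, and 4.64, 11.04 and 8.53 against 16.7, 30.9 and 24.9 CPM with CSA 50 mg/kg. The classes overlapped in saline and separated at the high dose, a change of -1.38 ± 0.22 (edgeR adjusted p = 0.0050). Ikzf2, which encodes Helios, had 77.2, 94.4 and 104 against 105, 109 and 104 CPM in saline, and 4.64, 1.84 and 6.82 against 16.2, 17.7 and 16.4 CPM with CSA 50 mg/kg, a change of -1.77 ± 0.31 (edgeR adjusted p = 0.0050) that was -1.34 without CSA 50 mg/kg replicate 2 (edgeR adjusted p = 0.094). Cluster 11, the Foxp3-led cluster, had 416 CPM of Ikzf2 and held 82 single cells and 1 expanded cell over all pools, and its part in the Ikzf2 values was not tested. At equal makeup neither change passed (Tnfsf8 -0.66, edgeR adjusted p = 0.769, and Ikzf2 -1.29, edgeR adjusted p = 0.291).

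St8sia1, a ganglioside sialyltransferase gene, had 3.39, 4.88 and 2.72 CPM in expanded and 19.8, 20.8 and 24.0 CPM in single cells of saline pools, and 11.03, 13.5 and 17.1 against 13.8, 14.03 and 18.1 CPM with CSA 50 mg/kg. The change was 2.37 ± 0.39 (edgeR adjusted p = 0.0050) and passed at equal makeup (2.30, edgeR adjusted p = 0.0277). The histone gene Hist1h4d changed by 0.55 ± 0.09. Pdcd1 differed between the classes by 0.82 ± 0.08 in saline, 0.73 ± 0.09 with CSA 5 mg/kg and 0.13 ± 0.19 with CSA 50 mg/kg, but the change at the high dose did not pass (edgeR adjusted p = 0.158).

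With CSA 5 mg/kg the genes of smallest p were Cxcl10, Tmsb4x, Mki67, Ifitm1 and Hist1h1e. Plac8, named above at equal makeup, also passed with all cells (-0.72 ± 0.15, edgeR interaction, adjusted p = 0.046). Its class difference was -0.25 in saline, -0.97 with CSA 5 mg/kg and -0.28 with CSA 50 mg/kg. Mki67 had 912, 948 and 935 CPM in expanded and 487, 612 and 599 CPM in single cells of saline pools, against 525, 395 and 370 and 403, 372 and 307 CPM with CSA 5 mg/kg. The class difference went from 0.72 to 0.25 (change -0.47 ± 0.09, edgeR adjusted p = 0.0337), and at equal makeup the change was -0.03. Ifitm1, an interferon-induced membrane protein gene, had 182, 258 and 226 against 365, 258 and 288 CPM in saline and 878, 672 and 983 against 689, 535 and 648 CPM with CSA 5 mg/kg, a turn from -0.43 to 0.43 (edgeR adjusted p = 0.0337). The interaction of Ifitm1 also passed with CSA 50 mg/kg, at 1.16 ± 0.25 (edgeR adjusted p = 0.0241). The chemokine Cxcl10, with levels of 2.55 to 60.1 CPM in expanded cells of these pools, changed by 3.34 ± 0.58, and CSA 5 mg/kg replicate 2 alone held the 60.1 CPM. DESeq2 called 0 genes for this interaction, with 50 at an unadjusted p under 0.05. With edgeR the calls of Mki67 and Ifitm1 were lost without saline replicate 1 (-0.39 and 0.60), without CSA 5 mg/kg replicate 2 (-0.40 and 0.91) and without its replicate 3 (-0.48 and 0.77), that of Mki67 also without saline replicate 2 (-0.52), that of Ifitm1 without CSA 5 mg/kg replicate 1 (0.90), and that of Cxcl10 without saline replicate 1 (2.52) or CSA 5 mg/kg replicate 2 (2.46).

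**Figure D5:**
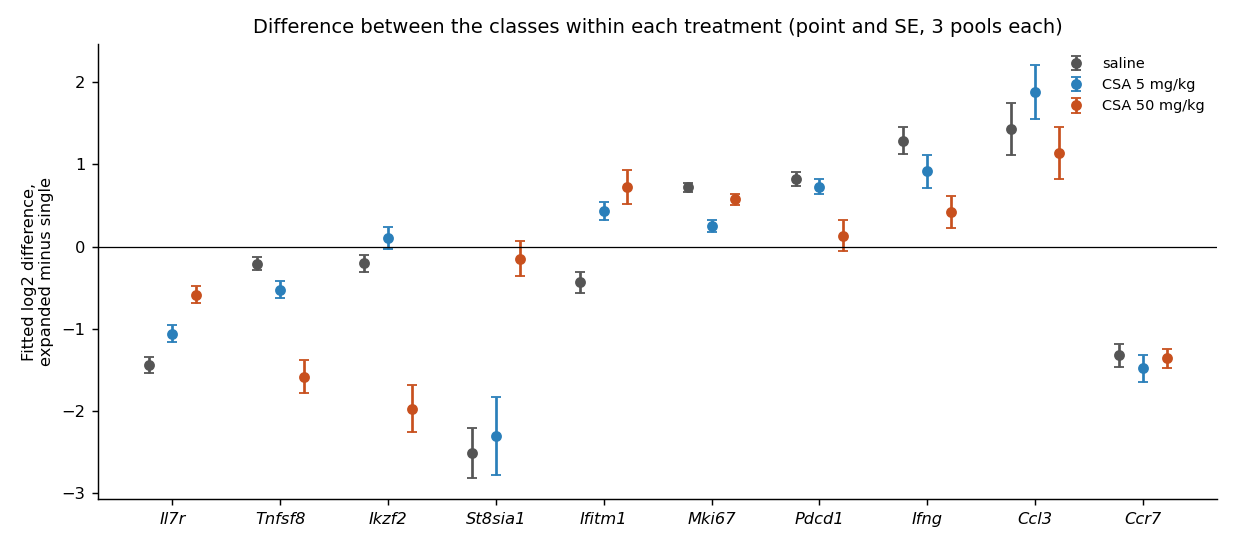
Fitted log2 difference (expanded minus single) within saline, CSA 5 mg/kg and CSA 50 mg/kg for 10 genes, with SE, 3 pools each. Il7r moved from -1.45 in saline to -0.59 with CSA 50 mg/kg and St8sia1 from -2.52 to -0.15, whereas Ccr7 lay between -1.48 and -1.32 in every treatment.

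Expanded cells themselves differed widely between CSA 50 mg/kg and saline, with 4523 of 8066 genes called (56.1%), 2228 higher and 2295 lower. With library size scaling in place of TMM the split was 935 higher and 4056 lower, and the median of all genes moved from -0.02 to -0.45. Treatment is also capture here. The largest rises were those of the lamin gene Lmna, which had 1.71, 2.46 and 0 CPM in saline and 161, 230 and 179 CPM with CSA 50 mg/kg, of Ly6c2 (4.12), the receptor Klrg1 (3.71), Ctla2a (3.18) and Chchd10 (3.11). Single cells changed by 3.57, 3.35, 2.87 and 2.49 for the last 4. For Klrg1, expanded cells had 6.84, 21.3 and 8.26 CPM in saline and 173, 157 and 159 CPM with CSA 50 mg/kg, without overlap.

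The largest falls were those of Sostdc1, which had 145, 112 and 63.3 CPM in saline and 0 UMIs in all 3 pools of CSA 50 mg/kg, Nrgn, which had 72.7, 84.5 and 69.7 CPM in saline and 1.17, 0.62 and 0.861 CPM at the high dose, Ikzf2 (-4.41), Tox (-4.08) and Tnfsf8 (-4.06). Single cells changed by -2.64, -3.21 and -2.63 for the last 3. Tox had 223, 185 and 149 CPM in expanded cells of saline and 7.62, 15.5 and 9.47 CPM with CSA 50 mg/kg. Expanded and single cells share their pools, and whether these paired changes differ is given by the interaction alone.

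Beta V segments were compared among 6092 clonotypes with 1 beta chain, 627 of them expanded, each clonotype counted once. Of 18 segments, TRBV14 made up 5.58% of expanded and 2.36% of single clonotypes, higher in 9 of 9 pools, and TRBV26 made up 6.52% and 10.6%, lower in 9 of 9 pools (exact sign-flip permutation tests, adjusted p = 0.0352 for each). Neither passed when each cell counted once (exact adjusted p = 0.0703 for each) or when both chains were required (exact adjusted p = 0.0703 and 0.105), and neither passed without any 1 pool, where the smallest p that 8 pools can give is 0.0078. TRBV13-3, TRBV19 and TRBV29 are among the segments that endogenous superantigens of mouse strains can bind, not all of them. Together these made up 12.4% ± 6.00 (SD, n = 9) of expanded and 18.5% ± 3.97 of single clonotypes, lower in 8 of 9 pools (exact permutation test, p = 0.043, unadjusted).

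Per cell, deposited scores also separated the classes. The stem-like score averaged -0.101 ± 0.0289 (SD, n = 9) in expanded and 0.00664 ± 0.0247 in single cells, lower in 9 of 9 pools (exact permutation test, adjusted p = 0.0047). The glycolysis score was 0.0594 ± 0.00726 against 0.0431 ± 0.00528, and the exhaustion score 0.0960 ± 0.00189 against 0.0912 ± 0.00216, each higher in 9 of 9 pools (exact adjusted p = 0.0047). The genes behind these scores are not given in the sources used here. At equal cluster makeup the stem-like and glycolysis scores still passed and the exhaustion score, UMIs and genes per cell did not. The mitochondrial fraction was 0.0186 in expanded and 0.0192 in single cells (exact adjusted p = 0.121).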

How the data were processed

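Spleen T cells were profiled by droplet single-cell RNA sequencing with hashtag and TCR libraries. The authors deposited UMI counts per gene and cell, tables of cells with clusters, clonotypes and a mitochondrial fraction, and module scores whose genes are not given in the sources used here. The submitters' processing notes name Cell Ranger, Seurat 3.0.0 and mm10. Gene positions are from the GENCODE annotation of mm10. No cell was removed for doublets here. Counts were summed per pool and class, and tested with edgeR 4.0.16 (R 4.3.3, limma 3.58.1; TMM, pool as block, edgeR's filter on low counts) at an adjusted p of 0.05, with DESeq2 1.42.0 as an alternative. The same hashtagged pool gave both classes, so the pairing is that of the mice. Clusters were tested with at least 10 cells of each class in at least 4 pools. Shares were tested by exact sign-flip permutation over pools, two-sided. On simulated data for 9011 genes in this comparison, 84% of 200 changed genes were recovered at a log2 change of 0.5 and 99.5% at 1. The changed genes were drawn only from genes above a set mean level, so recovery of weaker genes was not measured. Among unchanged genes 11 and 8 were called. Intervals and limits cover counting error only.

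Named genes were the 12 largest rises and falls with a mean of 50 CPM or more and the same sign in 8 or more of 9 pools, 6 and 6 by the same rule at equal makeup, 5 and 5 without overlap between treatments in expanded cells, up to 5 per interaction, and up to 4 called members of each list by mean CPM, or 2 members where none was called. RNA of TCR and immunoglobulin segments was not tested. The members and lists were chosen with earlier results of these data known. A strong second hashtag had at least 0.5 times the UMIs of the first. Some genes that this rule names are not reported here.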

Additional observations from a re-analysis of the deposited data

Results flagged for a closer look

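Of 56 sets of 9 pool differences examined, 3 had 1 pool far from the others, where chance gives about 1 in 20. Izumo1r differed by -3.41 (log2 CPM, expanded minus single) in CSA 50 mg/kg replicate 3, against -1.60 to -0.04 in the other pools, at 0.853 CPM in expanded cells there. Ifitm3 at equal cluster makeup differed by 1.19 in CSA 50 mg/kg replicate 1, against -0.78 to -0.16. The glycolysis score differed by 0.00695 in saline replicate 3, against 0.0152 to 0.0202.

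The class difference changed with treatment, by the interaction test, in the genes named for it. With CSA 5 mg/kg the changes against saline were 3.34 for Cxcl10, 0.20 for Tmsb4x, -0.47 for Mki67, 0.86 for Ifitm1 and 0.38 for Hist1h1e. With CSA 50 mg/kg they were -1.38 for Tnfsf8, 2.37 for St8sia1, 0.86 for Il7r, 0.55 for Hist1h4d and -1.77 for Ikzf2. Both sets use the same saline pools, and each treatment was 1 capture.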

How the results depend on the processing

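The 24 genes named by size with all cells kept their direction and their call with DESeq2, with 1 cell per expanded clonotype and with 1 alpha and 1 beta chain per cell, the last chosen after seeing the data. Outside clusters 3, 5 and 6, 19 kept both, Ccnb1, Cdk1, Clspn and Hmmr lost the call, and Hist1h2ap turned to -0.19. There Hist1h1b (-0.0885), Hist1h1e (-0.0823), Hist1h2ae (-0.15), Hist1h4d (-0.0720), Rrm2 (-0.0829), Slbp (-0.13) and Tubb4b (-0.0596) also turned; the setting removes the dividing cells. Counts moved more. Genes higher and lower in expanded cells were 537 and 476 with DESeq2, 419 and 311 with 1 cell per clonotype, 241 and 234 outside clusters 3, 5 and 6, and 173 and 97 without the pool as a block. The pools pair the same mice, so the block is part of the design. At equal makeup the counts were 30 and 10 with DESeq2, 17 and 6 with 1 cell per clonotype, 125 and 97 without a filter on low counts, 0 and 0 without the block (edgeR, 192 genes at an unadjusted p under 0.05), 49 to 87 and 21 to 60 without 1 pool, and 68 lower in a second draw of cells. Both were smallest without saline replicate 1.

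The interaction with CSA 50 mg/kg gave 101 genes without the filter, 6 with 1 cell per clonotype, 6 at equal makeup and 9 to 29 without 1 of the saline or CSA 50 mg/kg pools, and that with CSA 5 mg/kg gave 0 with DESeq2, 24, 3, 1 and 2 to 10 without 1 of the saline or CSA 5 mg/kg pools, with the lowest counts without CSA 50 mg/kg replicate 1 and without saline replicate 1 or 2. Calls within saline were 256 with DESeq2, 105 with 1 cell per clonotype, 64 at equal makeup and 400 to 668 without 1 of its own pools. In the same order, with CSA 5 mg/kg they were 269, 284, 74 and 359 to 493, and with CSA 50 mg/kg 163, 242, 1 and 290 to 354. DESeq2 called 18 genes in cluster 0, 49 in cluster 1, 3 in cluster 2 and 1 in cluster 5, and cluster 2 gave 5 with at least 5 cells of each class. Beta segments gave 0 calls with 1 vote per cell, with both chains and without any 1 pool (0 to 0). Per-cell measures gave 2 calls at equal makeup, signs of CD8 RNA or doublets 0 to 1 without 1 pool, and the CD4+ share of expanded cells differed from the CD8+ share by -5.68 points after thinning and by -8.69 to -5.63 without 1 pool. The cause was not tested. Clonotypes were sampled from a part of each spleen, so a single cell may belong to a clone whose other cells were not captured.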
